A study of Mus musculus with 14 samples.

Results

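Mouse embryonic fibroblasts (MEFs) were compared with partial induced pluripotent stem cells (partial iPSCs), which are reprogrammed cells that have not reached full pluripotency. The MEF culture gave 1 array, and the untreated partial iPSC clones 2B1 and 5C5 gave 1 array each, 3 of the 14 arrays of the series. A gene was counted where the MEF array lay at least 1 log2 unit, a 2-fold difference, above both clones or below both clones. Of 18193 measured genes, 1537 (8.45%) were higher in MEFs and 1450 (7.97%) were lower, together 2987 (16.4%). With 1 MEF array there was no replicate and no test, so every value below describes these arrays and not MEFs in general.

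The MEFs came from Nanog-GFP transgenic C57BL/6 mice, are labelled as of mixed sex, and were grown without leukemia inhibitory factor (LIF). Their sample title places the embryo at 12.5 days post coitum, whereas the series text gives 13.5. Both partial clones are labelled female and C57BL/6 and were grown in serum with LIF, and each is a single clone, so the medium and the labelled sex differ along with the cell state. The 4 other arrays on the same scale are quoted as levels. These are iPSCs made from each clone under 2i, a condition in which the kinases MEK and GSK3 are blocked, labelled female and C57BL/6, and the embryonic stem cell (ESC) lines Nanog-GFP (male, C57BL/6) and EBRTcH3 (male, 129sv). The remaining 7 arrays were of 2B1 cells carrying retroviral factors or empty vector. They were treated as normalized apart, since their array means were 5.87 to 5.88 against 6.09 for the other 7.

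Fibroblasts are mesenchymal cells that build and remodel connective tissue. They secrete collagens and other matrix proteins, pull on the matrix through actin and myosin fibres, and carry the positional code of Hox genes from the embryo. During reprogramming, fibroblast genes are shut down, cells take on epithelial junctions, and a network of pluripotency factors is switched on in stages.

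All values are log2 RMA signals, in which probe intensities were summarised per probe set, and each gene was read from 1 probe set, the brightest on average across all arrays. A difference is MEF minus partial iPSC, and where a single one is given it is the smaller in size of the differences from the 2 clones. All 8 fibroblast markers, Col1a1, Col1a2, Col3a1, Pdgfra, Pdgfrb, Thy1, Prrx1 and Twist2, lay between 10.94 and 14.52 in MEFs. They were higher there than in both clones, by 1.90 to 5.95. Other probe sets of Pdgfra and Prrx1 were not past the rule. These differences are the values that the rule counts, so they are no separate check of the MEF label. Among 4 markers of pluripotent cells, Pou5f1, Sox2, Nanog and Zfp42 lay between 2.56 and 5.08 in MEFs, under the median of that array (5.48). In the partial clones only Pou5f1 of these 4 was high, while Sox2, Nanog and Zfp42 were low as in MEFs, at most 4.67. In such bulk RNA, fewer cells of a type and less RNA per cell cannot be told apart. The choice of probe set bears on single genes: of the 15206 genes outside the rule, 787 had another probe set that was past it, 320 higher and 467 lower in MEFs.

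The distance of MEFs from the clones was larger than the distance between the clones. Over all genes, the median absolute difference was 0.39 between MEFs and the mean of the clones, against 0.23 between 2B1 and 5C5. The clones were at least 1 apart at 1439 genes (7.91%), with 2B1 higher at 581 (3.19%) and lower at 858 (4.72%). Against 2B1 alone, 1965 genes (10.8%) were higher in MEFs and 2067 (11.4%) lower, and against 5C5 alone 2016 (11.1%) were higher and 2323 (12.8%) lower. Among the genes higher in MEFs, 121 of 1537 (7.9%) also separated the clones by 1 or more, and among those lower in MEFs 231 of 1450 (15.9%) did, against 7.1% of the genes outside the rule. More genes stood far above the clones than far below: 106 genes were at least 4 higher in MEFs, against 72 that were at least 4 lower. The median over the counted genes was 1.71 for the higher and -1.49 for the lower ones. At the edge of the rule, Gzme (1.0007) and Tapbpl (1.0009) were just inside and Tram1 (0.9994) and Tdrd7 (0.9993) just outside on the higher side, while Mpp7 and Zdhhc15 (both -1.0002) were just inside and Ndufaf3 (-0.9996) and Neil1 (-0.9994) just outside on the lower side.

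**Figure D1:**
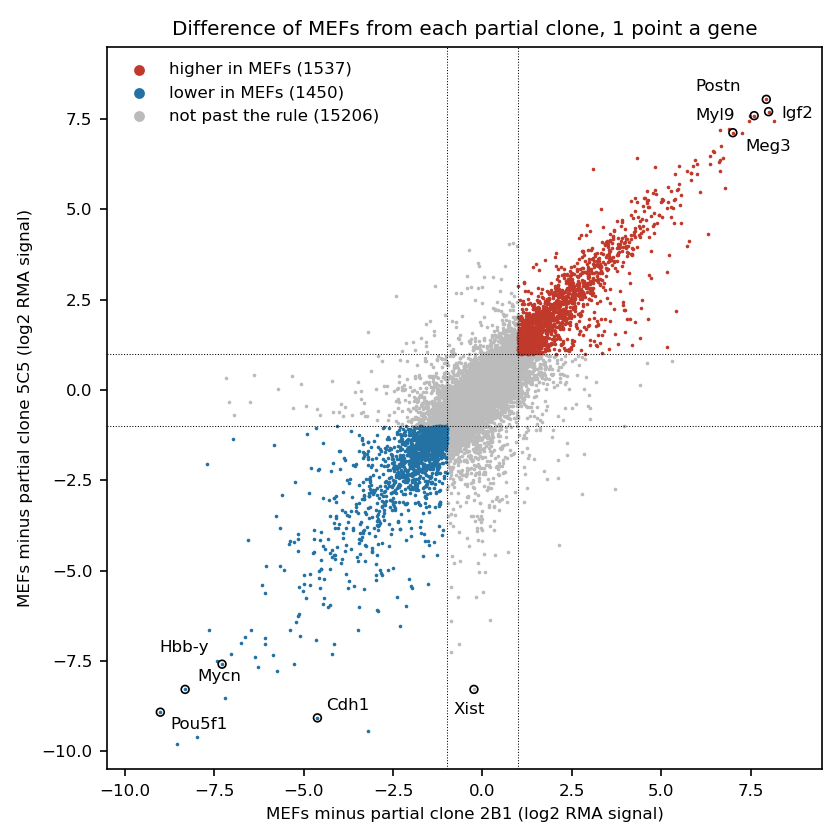
Each point is 1 of 18193 genes, with the difference MEF minus 2B1 on the x axis and MEF minus 5C5 on the y axis, both in log2 RMA signal, and dotted lines at 1 and -1. The 1537 higher genes lie along the diagonal and run up to Postn, Igf2 and Myl9, the 1450 lower genes scatter more widely, with Cdh1 at -4.62 and -9.08, and Xist at -0.24 against 2B1 and -8.29 against 5C5.

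The 4 genes that mark the comparison stood far apart. Periostin, Postn, a matrix protein of connective tissue that binds collagen, had 13.11 in MEFs, against 5.16 in 2B1 and 5.06 in 5C5. The growth factor Igf2, an imprinted driver of fetal growth, had 13.49 in MEFs, against 5.48 in 2B1 and 5.78 in 5C5, and its other probe set also was higher in MEFs, by 3.52. Myl9, the regulatory light chain of smooth muscle and nonmuscle myosin, had 13.08 in MEFs, against 5.47 in 2B1 and 5.48 in 5C5. For these 3 genes the MEF array was the highest of the 7 that share a scale. Pou5f1, the pluripotency factor also called Oct4, had 4.23 in MEFs, against 13.25 in 2B1 and 13.16 in 5C5, and it was 11.72 to 12.42 in 2i iPSCs and ESCs. Those 4 genes were used in naming the comparison, so their differences carry no independent weight.

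The gene group with the highest share of members higher in MEFs was the collagens, with 17 of 19 higher and 0 lower. Their median difference from the mean of the clones was 3.86, against 0.02 over all genes. Col1a1, a chain of type I collagen, the main fibre of connective tissue, had 12.73 in MEFs, against 7.55 in 2B1 and 7.11 in 5C5. Its level was 8.81 and 9.12 in the 2i iPSCs and 5.20 in the Nanog-GFP ESCs, and lower still in EBRTcH3. The untreated partial clones thus lay between MEFs and ESCs. The transduced 2B1 arrays did not share that level: on their own scale, Col1a1 ran from 4.35 to 5.32, with a median of 4.59. Col3a1, the fibrillar collagen that accompanies type I in elastic tissues, had 13.37 in MEFs, against 9.22 in 2B1 and 8.52 in 5C5. Its median over the transduced 2B1 arrays, on their own scale, was 6.52. The type VI chains Col6a2 and Col6a3, which form beaded filaments around cells, were higher by 4.51 and 4.55, and Col5a1, which sets fibril diameter, by 4.37. Col15a1 (0.03) and Col18a1 (-0.57), chains of basement membrane zone collagens, were the members outside the rule. The type IV chains of basement membranes, Col4a1 and Col4a2, were each higher by 3.1.

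Matrix glycoproteins and proteoglycans behaved alike, with 21 of 24 higher in MEFs, 0 lower and a median difference of 3.44. Thbs2, a thrombospondin that organises collagen fibrils, had 11.59 in MEFs, against 4.97 in 2B1 and 5.28 in 5C5. Fbn2, the fibrillin of embryonic microfibrils, was higher by 5.47, the microfibril protein Mfap5 by 5.11, and Aspn, a small leucine-rich proteoglycan, by 5.82. Fibronectin, Fn1, the adhesive glycoprotein often used as a mesenchymal marker, was outside the rule, with 13.39 in MEFs, against 12.55 in 2B1 and 13.27 in 5C5. Nid2, a basement membrane linker (7.89 in MEFs, against 7.41 in 2B1 and 8.87 in 5C5), also was outside it. Its relative Nid1 was higher by 1.10. Eln, which encodes elastin, differed by 0.13 on the probe set used, but its other probe set was past the rule, with 7.53 in MEFs, against 5.34 in 2B1 and 5.50 in 5C5.

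Enzymes that crosslink, process or degrade the matrix, with their inhibitors, had 16 of 21 members higher in MEFs and 0 lower (median difference 2.70). Lox, the lysyl oxidase that crosslinks collagen and elastin, had 13.23 in MEFs, against 7.51 in 2B1 and 7.15 in 5C5. In ESCs it was 4.70 and 4.59, and its median over the transduced 2B1 arrays, on their own scale, was 5.00. Its relative Loxl1 was higher by 3.68, the aggrecan-cleaving protease Adamts5 by 4.85, the membrane protease Fap by 4.62 and Mmp23 by 3.85. The collagenase Mmp13 (6.87 in MEFs, against 6.77 in 2B1 and 6.17 in 5C5) and the stromelysin Mmp3 (8.08 in MEFs, against 9.15 in 2B1 and 8.60 in 5C5) were not past the rule. Of the other 3 probe sets of Adamts5, 1 differed by 0.22.

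**Figure D2:**
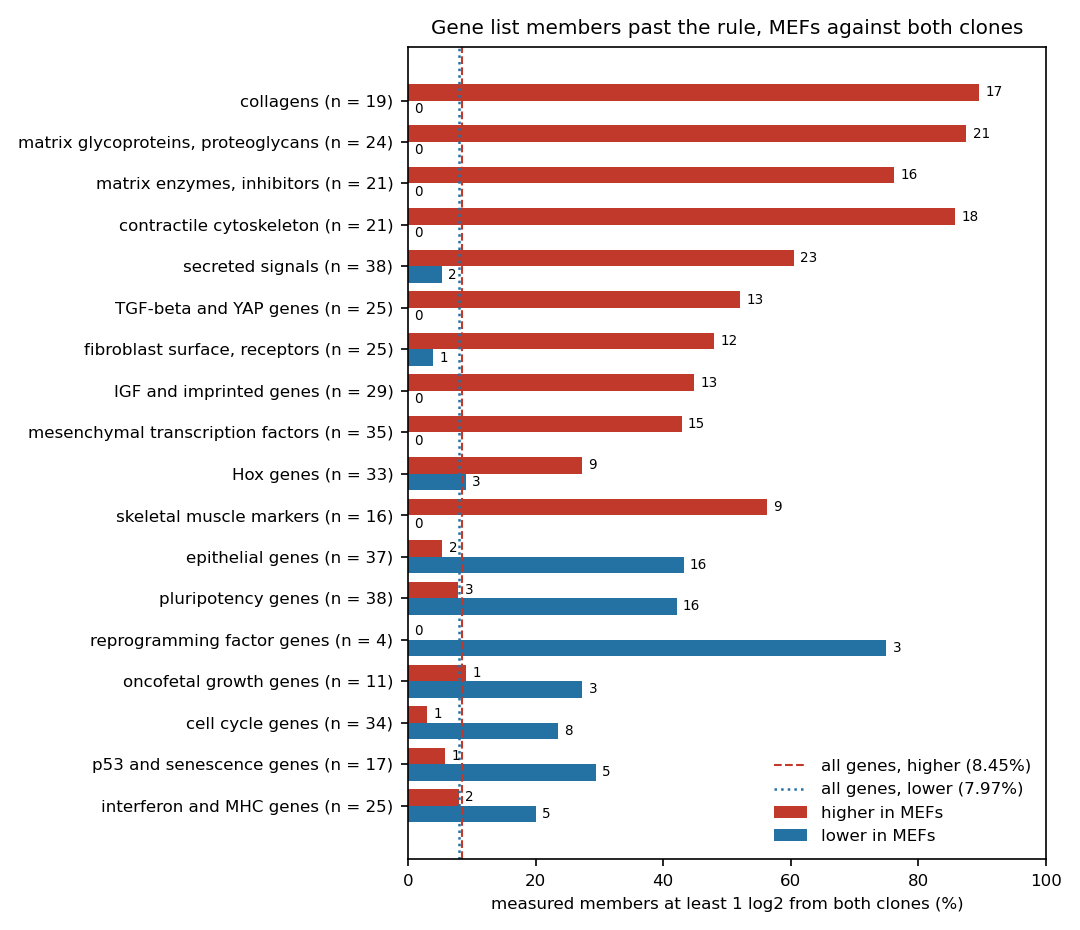
Bars give the percentage of measured members of each gene list that lay at least 1 log2 from both clones, higher in MEFs (upper bar) or lower (lower bar), with the count of members beside the bar and dashed and dotted lines at the shares over all genes, 8.45% and 7.97%. Collagens (17 of 19 higher) and the contractile cytoskeleton (18 of 21 higher) hold the longest upper bars together with the matrix glycoproteins (21 of 24), and the lists with more lower than higher members begin at the epithelial genes (16 of 37 lower).

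Of the contractile cytoskeleton genes, 18 of 21 were higher in MEFs and 0 lower, with a median difference of 2.42. These genes encode the actin isoforms, the myosin chains and the actin-binding proteins of stress fibres, and many are known targets of serum response factor, which binds the CArG box, and its actin-regulated cofactors. Acta2, smooth muscle alpha-actin and the marker of contractile fibroblasts, had 14.36 in MEFs, against 8.98 in 2B1 and 8.38 in 5C5. Tagln (transgelin, an actin crosslinker) had 13.98 in MEFs, against 7.35 in 2B1 and 7.62 in 5C5. Cnn1, the calponin that restrains actomyosin, had 11.14 in MEFs, against 4.49 in 2B1 and 3.93 in 5C5, and Tpm2, a tropomyosin, was higher by 4.82. Cnn3, a calponin found in many tissues, was nearly level, with 13.20 in MEFs, against 13.07 in 2B1 and 12.84 in 5C5. Myh11, the heavy chain of mature smooth muscle, was low on the probe set used (4.54 in MEFs, against 3.97 in 2B1 and 4.14 in 5C5), whereas its other probe set was past the rule, with 6.85 in MEFs, against 3.67 in 2B1 and 3.68 in 5C5.

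RefSeq promoter windows, from 250 bases before to 50 bases after the annotated start on GRCm38.p6, were given for 17 of the 21 contractile genes. A CArG box on either strand was found in 3 of the 17 (17.6%), against 33 of 1190 genes higher in MEFs (2.77%), 17 of 1174 genes lower in MEFs (1.45%) and 229 of all 14452 genes with a window (1.58%). The 3 windows are printed because they hold that match, which is in capitals; all are on the plus strand. In Cnn2 (chr10:79988350-79988649) the match spans -56 to -47 from the start, in Myl9 (chr2:156775214-156775513) -161 to -152, and in Vcl (chr14:20929148-20929447) -227 to -218.
Myl9: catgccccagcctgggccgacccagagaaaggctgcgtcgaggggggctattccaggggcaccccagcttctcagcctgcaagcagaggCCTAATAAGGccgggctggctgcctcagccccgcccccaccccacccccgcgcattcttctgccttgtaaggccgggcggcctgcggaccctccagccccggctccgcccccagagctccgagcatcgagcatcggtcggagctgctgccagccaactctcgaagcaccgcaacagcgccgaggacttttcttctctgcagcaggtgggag
Cnn2: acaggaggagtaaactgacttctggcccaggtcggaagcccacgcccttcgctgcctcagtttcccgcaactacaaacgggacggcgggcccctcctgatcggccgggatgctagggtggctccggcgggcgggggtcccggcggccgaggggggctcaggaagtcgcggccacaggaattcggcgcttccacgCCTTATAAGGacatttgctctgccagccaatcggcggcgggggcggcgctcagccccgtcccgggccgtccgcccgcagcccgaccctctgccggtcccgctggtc
Vcl: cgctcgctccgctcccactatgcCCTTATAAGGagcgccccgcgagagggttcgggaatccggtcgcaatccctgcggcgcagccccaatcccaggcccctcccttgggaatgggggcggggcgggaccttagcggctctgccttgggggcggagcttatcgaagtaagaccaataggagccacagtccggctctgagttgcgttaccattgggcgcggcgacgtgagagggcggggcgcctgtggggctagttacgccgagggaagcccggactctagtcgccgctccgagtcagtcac
These 3 genes, picked after the matches were known, were all past the rule: Cnn2, a calponin, had 13.09 in MEFs, against 10.60 in 2B1 and 9.90 in 5C5, and Vcl, which encodes the adhesion protein vinculin, had 12.61 in MEFs, against 11.04 in 2B1 and 10.32 in 5C5. The letters GGAATG, part of the element read by TEAD factors, on either strand, were in the windows of 8 of the 17 contractile genes (47.1%), of 211 of the 1190 higher genes (17.7%), of 172 of the 1174 lower genes (14.7%) and of 2212 of all 14452 genes (15.3%). TATAAA, which is the core of the TATA box and can overlap a CArG box, was in 1 of the 17 (5.88%), in 13.4% of the higher, 10.6% of the lower and 11.5% of all genes. A match describes letters in a window and not a bound site.

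Skeletal muscle genes, which mark myoblasts and muscle fibres, also were higher in MEFs. Of 16 skeletal muscle markers, 9 were higher in MEFs and 0 lower, and the mean log2 level over the list was 6.46 in MEFs, against 4.56 in 2B1 and 4.48 in 5C5. Acta1, skeletal alpha-actin, had 10.78 in MEFs, against 5.61 in 2B1 and 5.75 in 5C5. Actc1, cardiac alpha-actin, was higher by 3.84, Myh3, the embryonic myosin heavy chain, by 3.53, and Myl1, a myosin light chain, by 3.45. The determination factors Myod1 (4.67 in MEFs, against 4.32 in 2B1 and 4.27 in 5C5) and Myf5 (2.34 in MEFs, against 2.46 in 2B1 and 2.53 in 5C5) stayed low in all 3, whereas Myog, the factor of differentiating myoblasts, had 5.95 in MEFs, against 4.12 in 2B1 and 4.24 in 5C5. With genes required to reach the table median on 2 of the 14 arrays, 3 of the 9 remained, because markers that only the MEF array shows are dropped by that filter. The part of muscle cells in the contractile group was not tested.

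**Figure D3:**
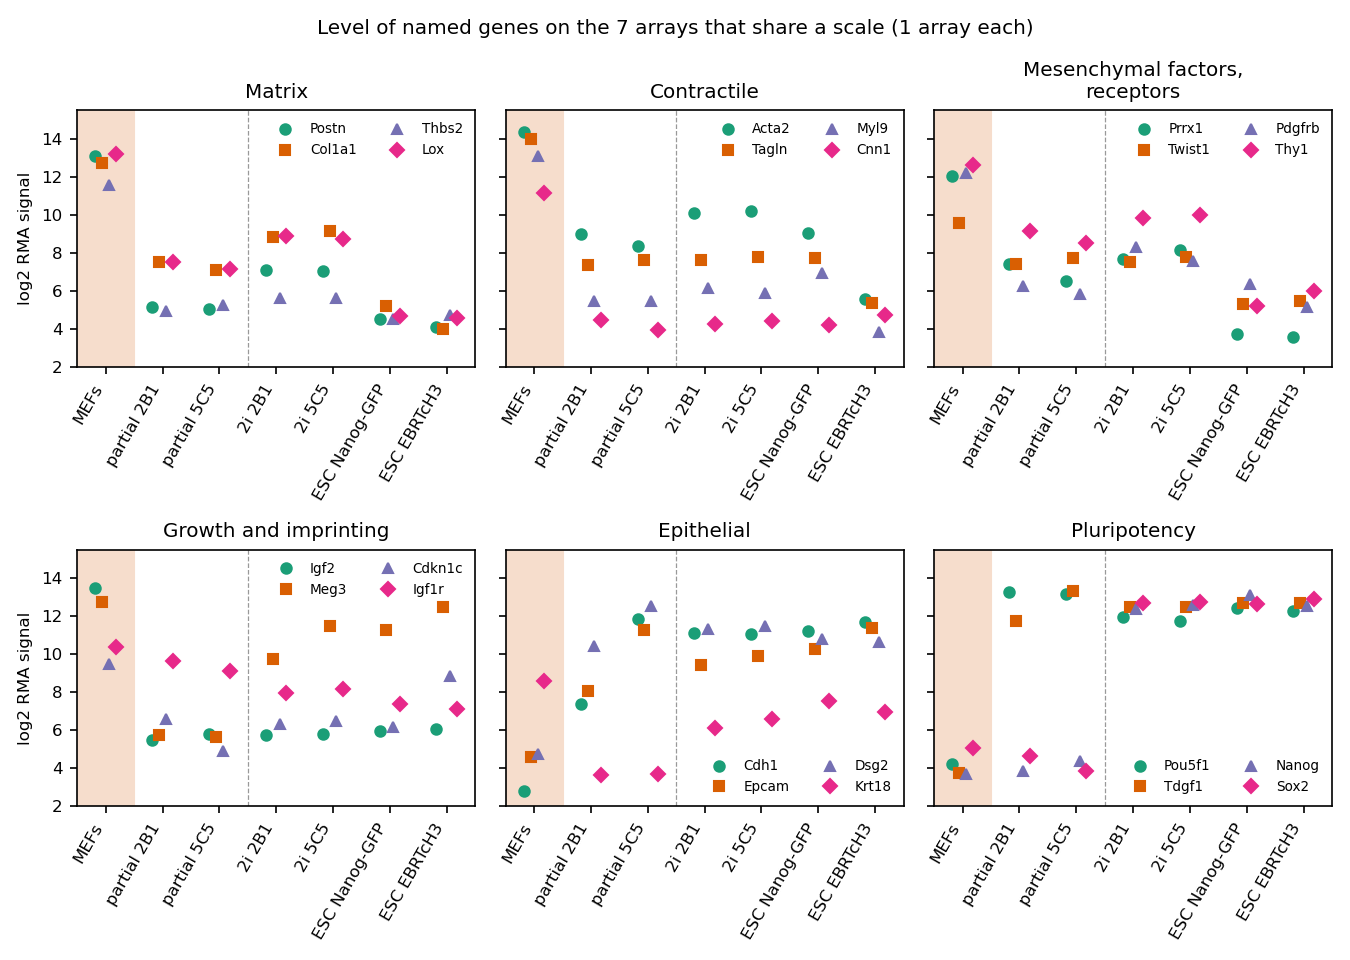
Points are the log2 RMA signal (y axis) of 24 named genes on each of the 7 arrays on 1 scale (x axis, 1 array each), with the MEF array shaded and a dashed line after the partial clones. Matrix, contractile and mesenchymal genes are highest on the MEF array, Meg3 is high in MEFs, 2i iPSCs and ESCs but at 5.76 and 5.64 in the partial clones, and Pou5f1 and Tdgf1 are low only in MEFs, whereas Sox2 and Nanog are low in MEFs and in both partial clones.

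Transcription factors of mesenchyme differed less as a group, with 15 of 35 higher in MEFs, 0 lower and a median difference of 1.22. Prrx1, a homeobox factor of limb and facial mesenchyme, had 12.05 in MEFs, against 7.44 in 2B1 and 6.53 in 5C5. Its partner Prrx2 was higher by 4.34, Creb3l1, which drives collagen secretion, by 4.47, Ebf2 by 3.99 and Twist2 by 3.38. Twist1, the basic helix-loop-helix regulator of mesenchyme, had 9.57 in MEFs, against 7.40 in 2B1 and 7.72 in 5C5, and 5.33 and 5.44 in ESCs. Of the 20 members outside the rule, 6 had another probe set higher in MEFs and 2 another one lower. Members outside the rule on the probe set used included Tbx20 (4.45 in MEFs, against 4.41 in 2B1 and 4.65 in 5C5) and Barx1 (5.58 in MEFs, against 4.99 in 2B1 and 6.10 in 5C5). With every probe set of a gene required to pass, 10 of the 15 were left, and Prrx1 then was among the lost, since 1 of its 6 probe sets lay at 2.70 in MEFs, against 2.73 in 2B1 and 2.83 in 5C5.

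Surface proteins and receptors of fibroblasts were split. Of 25, 12 were higher in MEFs (48%, against 8.45% of all genes) and 1 lower (4%, against 7.97%). Their median difference was 1.37. Pdgfrb, a receptor for platelet-derived growth factor, had 12.22 in MEFs, against 6.27 in 2B1 and 5.85 in 5C5, and Thy1, a classical fibroblast surface marker, had 12.61 in MEFs, against 9.16 in 2B1 and 8.51 in 5C5. Cdh11, the cadherin of mesenchyme, was higher by 3.88 and Tmem119 by 4.64. The hyaluronan receptor Cd44 was outside the rule, with 11.93 in MEFs, against 11.74 in 2B1 and 11.72 in 5C5, while it was 2.9 in both ESC lines. Another of its 4 probe sets was past the rule, with 10.43 in MEFs, against 9.37 in 2B1 and 9.03 in 5C5. Nt5e, the ecto-nucleotidase CD73 used as a marker of stromal cells, was the lower member, with 6.14 in MEFs, against 9.62 in 2B1 and 10.89 in 5C5. That call rests on 1 of its 3 probe sets and ended with their median (-0.86).

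Secreted signals were mostly higher in MEFs, 23 of 38 (60.5%, against 8.45% of all genes), with 2 lower (5.26%, against 7.97%). Their median difference was 2.45. The Wnt antagonist Dkk2 had 10.32 in MEFs, against 3.07 in 2B1 and 3.21 in 5C5, and it lay between 2.5 and 2.9 in 2i iPSCs and ESCs. Wnt5a, a ligand of noncanonical Wnt signalling, had 9.91 in MEFs, against 4.54 in 2B1 and 5.29 in 5C5, and Dkk3 was higher by 4.66. Slit3, a guidance ligand, was higher by 4.61, and Pdgfd, a ligand of the receptor Pdgfrb, by 4.33. The 2 lower members, named after their values were seen, were the growth factor Mdk (8.65 in MEFs, against 11.57 in 2B1 and 12.91 in 5C5) and the chemokine Cxcl1 (8.56 in MEFs, against 11.16 in 2B1 and 10.22 in 5C5). With every probe set required to pass, 15 of the 23 higher ones were left.

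Of 25 genes of TGF-beta signalling and of YAP targets, 13 were higher in MEFs and 0 lower (median difference 1.43). Ltbp2, a latent TGF-beta binding protein of microfibrils, had 10.51 in MEFs, against 5.01 in 2B1 and 4.31 in 5C5. Inhba, the subunit of activin A, had 12.32 in MEFs, against 7.25 in 2B1 and 7.06 in 5C5, although another of its probe sets differed by 0.03. Fst, the secreted inhibitor of activin, was higher by 3.92 and the ligand Tgfb3 by 3.64. Tgfb2 lay between the clones, with 8.19 in MEFs, against 6.07 in 2B1 and 10.11 in 5C5, and the receptor Tgfbr1 was level (9.70 in MEFs, against 9.09 in 2B1 and 9.67 in 5C5). With every probe set required to pass, 8 of the 13 were left.

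Insulin-like growth factor and imprinted genes had 13 of 29 members higher in MEFs and 0 lower, with a median difference of 1.67. Meg3, a maternally expressed long noncoding RNA of the Dlk1-Dio3 imprinted domain, had 12.77 in MEFs, against 5.76 in 2B1 and 5.64 in 5C5. Loss of this RNA is a known mark of mouse iPSCs of lower developmental potential. Likewise, of 2 further maternal RNAs of the domain, Rian had 8.52 in MEFs, against 4.49 in 2B1 and 4.69 in 5C5, and Mirg 8.74 in MEFs, against 4.83 in 2B1 and 4.53 in 5C5. Meg3 was 9.77 and 11.47 in the 2i iPSCs of clones 2B1 and 5C5, and 11.26 and 12.46 in the Nanog-GFP and EBRTcH3 ESCs. All 11 Meg3 probe sets were higher in MEFs. Dlk1, the paternally expressed gene of that domain, was not past the rule, with 8.54 in MEFs, against 7.89 in 2B1 and 7.08 in 5C5. Cdkn1c, an imprinted inhibitor of the cell cycle, was higher by 2.92, and Zim1 was low in all 3 (3.79 in MEFs, against 3.97 in 2B1 and 3.64 in 5C5). Igfbp7, a secreted binding protein of the insulin-like growth factor family, depended on the probe set. The one used had 6.77 in MEFs, against 6.70 in 2B1 and 6.68 in 5C5, but the other 2 were past the rule, with 13.11 in MEFs, against 7.62 in 2B1 and 7.28 in 5C5, and with 6.86 in MEFs, against 3.24 in 2B1 and 3.39 in 5C5. In all, 3 of the 16 members outside the rule had another probe set higher in MEFs.

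The Hox genes did not move as a block. Hox genes lie in 4 clusters, and their order along a cluster matches the body position at which they are expressed. Of 33 measured, 9 were higher in MEFs (27.3%, against 8.45% of all genes) and 3 lower (9.09%, against 7.97%). Their median difference was 0.35. By cluster, 1 of 9 Hoxa genes was higher and 3 lower, 4 of 9 Hoxb, 3 of 7 Hoxc and 1 of 8 Hoxd genes were higher, and 0 of those 3 clusters were lower. Hoxc8 had 9.49 in MEFs, against 3.02 in 2B1 and 2.89 in 5C5, Hoxc10 had 9.24 in MEFs, against 4.21 in 2B1 and 3.94 in 5C5, and Hoxa11 8.83 in MEFs, against 4.03 in 2B1 and 4.47 in 5C5. Hoxb9 and Hoxb5 were each higher by 2.86. All 3 lower ones, named after their values were seen, are Hoxa genes: Hoxa9 had 9.35 in MEFs, against 11.30 in 2B1 and 11.07 in 5C5, Hoxa4 4.65 in MEFs, against 6.62 in 2B1 and 6.96 in 5C5, and Hoxa2 5.03 in MEFs, against 6.62 in 2B1 and 6.74 in 5C5. The clones differed by 1 or more at 7 Hox genes, and Hoxd8 and Hoxd9 lay between them (7.63 in MEFs, against 9.10 in 2B1 and 5.74 in 5C5 for Hoxd9). Against 5C5 alone 17 Hox genes were higher and 5 lower, against 2B1 alone 5 were lower, and the filter that asks for 2 of 14 arrays kept 4 of the 9 higher ones. Of the 21 Hox genes outside the rule, 2 (Hoxc5 and Hoxc6) had another probe set higher in MEFs and 1 (Hoxa3) another one lower.

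**Figure D4:**
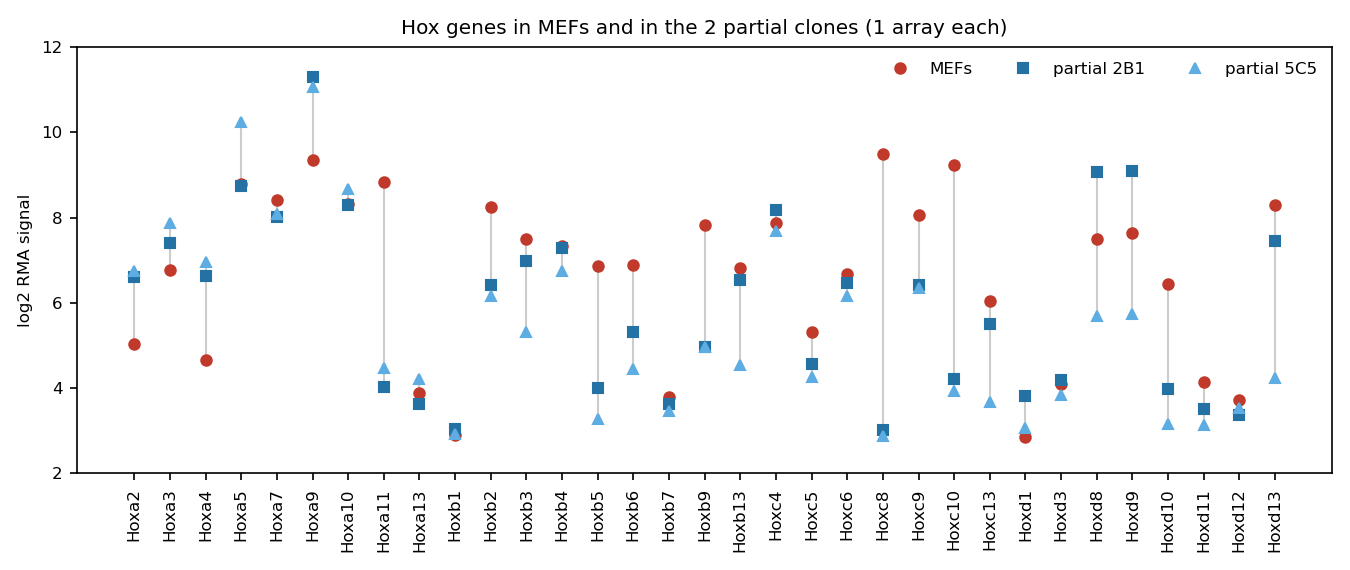
Points are the log2 RMA signal (y axis) of the 33 measured Hox genes (x axis, in cluster order) in MEFs, clone 2B1 and clone 5C5, 1 array each, joined by a grey line. Hoxc8, Hoxc10 and Hoxa11 stand 4.36 to 6.47 above both clones, Hoxa2, Hoxa4 and Hoxa9 lie below both, and at Hoxd8 and Hoxd9 the MEF point falls between the clones.

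Epithelial genes were lower in MEFs, 16 of 37 (43.2%, against 7.97% of all genes), with 2 higher (5.41%, against 8.45%). Their median difference was -1.67. Cdh1, the cadherin of adherens junctions, had 2.79 in MEFs, against 7.40 in 2B1 and 11.87 in 5C5. Dsg2, a desmosomal cadherin, had 4.72 in MEFs, against 10.46 in 2B1 and 12.51 in 5C5, and Ocln, the tight junction protein occludin, had 3.76 in MEFs, against 7.49 in 2B1 and 9.07 in 5C5. Perp, a desmosome protein and target of p53, was lower by 3.34 on this rule (8.58 in MEFs, against 12.25 in 2B1 and 11.92 in 5C5), and Epcam, an epithelial adhesion molecule, had 4.61 in MEFs, against 8.08 in 2B1 and 11.26 in 5C5. The second probe set of Epcam ran the other way, with 7.70 in MEFs, against 6.19 in 2B1 and 7.02 in 5C5, and with the median of both the call ended (-0.98). Krt18, a keratin of simple epithelia, was higher in MEFs, with 8.57, against 3.63 in 2B1 and 3.71 in 5C5, as was Krt7 (7.57 in MEFs, against 5.04 in 2B1 and 5.08 in 5C5). Clone 5C5 was at least 1 above 2B1 at 23 of the 37 genes and never as far below it, and Krt8 lay between the clones (7.79 in MEFs, against 5.43 in 2B1 and 9.59 in 5C5). Against 5C5 alone, 29 of the 37 were lower in MEFs. Across the 7 transduced 2B1 arrays, on their own scale, Cdh1 had a lowest value of 3.35, a median of 8.59 and a highest of 10.17.

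The 4 genes of the usual reprogramming cocktail are Pou5f1, Sox2, Klf4 and Myc, and 3 of them were lower in MEFs. Myc had 8.80 in MEFs, against 11.96 in 2B1 and 12.34 in 5C5, while it was 7.8 to 8.6 in 2i iPSCs and ESCs. Sox2 was low throughout the comparison, with 5.08 in MEFs, against 4.67 in 2B1 and 3.85 in 5C5, and 12.7 to 12.9 on the other 4 arrays. Klf4 had 10.61 in MEFs, against 12.11 in 2B1 and 12.77 in 5C5, on the probe set used, but its second probe set had 10.57 in MEFs, against 8.05 in 2B1 and 7.87 in 5C5. The direction for Klf4 therefore depends on the probe set. The labels do not say which reprogramming factors the clones carry. Whether a signal in the clones, that of Pou5f1 included, came from an introduced copy or from the cell's own gene was not tested.

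Of 38 pluripotency genes, 16 were lower in MEFs (42.1%, against 7.97% of all genes) and 3 higher (7.89%, against 8.45%). Their median difference was -0.80. Tdgf1, a coreceptor of Nodal, had 3.74 in MEFs, against 11.73 in 2B1 and 13.34 in 5C5. The nuclear receptor Nr0b1 had 3.10 in MEFs, against 10.76 in 2B1 and 9.75 in 5C5. Fgf4, a growth factor of early embryos, had 3.05 in MEFs, against 9.41 in 2B1 and 10.45 in 5C5, and L1td1, an RNA-binding protein, was lower by 6.08. Fut9, which makes the stage-specific antigen SSEA1, was lower by 6.07. Members that stayed low in all 3 arrays included Nanog (3.72 in MEFs, against 3.85 in 2B1 and 4.36 in 5C5), Gdf3 (4.64 in MEFs, against 4.84 in 2B1 and 4.43 in 5C5) and Dppa3 (4.50 in MEFs, against 4.06 in 2B1 and 4.86 in 5C5). Nanog was 12.4 to 13.1 and Gdf3 10.2 to 10.7 in 2i iPSCs and ESCs. The 3 members higher in MEFs, named after their values were seen, were Klf2 (1.42), Tbx3 (1.68) and Fut4 (1.63). With every probe set required to pass, 10 of the 16 lower ones were left.

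Growth regulators were mixed. Among 11 oncofetal growth genes, 3 were lower in MEFs (27.3%, against 7.97% of all genes) and 1 higher (9.09%, against 8.45%). Their median difference was 0.03. Mycn, a relative of Myc that is active in embryonic tissue, had 5.97 in MEFs, against 14.29 in 2B1 and 14.26 in 5C5, and its level was 12.18 and 12.62 in 2i iPSCs but 6.13 and 6.05 in ESCs. The other 2 Mycn probe sets were lower in MEFs by 2.82 and 1.06 and had their highest values in ESCs, up to 10.84. Ezh2, the histone methyltransferase of Polycomb, was lower by 1.40 and Sox11 by 1.82, while Hmga2, a chromatin protein of fetal cells, was higher by 1.36, a call that ended with the median of its 4 probe sets (0.95). Of 34 cell cycle genes, 8 were lower in MEFs (23.5%, against 7.97% of all genes) and 1 higher (2.94%, against 8.45%). Their median difference was -0.77. E2f2 (5.75 in MEFs, against 8.28 in 2B1 and 8.44 in 5C5) and the replication genes Mcm10 (-1.61), Cdt1 (-1.35) and Pcna (-1.19) were lower, and the cyclin Ccnd2 was higher (13.53 in MEFs, against 11.67 in 2B1 and 11.40 in 5C5). With every probe set required to pass, 4 of the 8 lower ones were left, and with the median of its probe sets Mcm10 fell outside the rule (-0.67). Of the 25 cell cycle genes outside the rule, 4 had another probe set that was lower in MEFs.

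Genes of p53 and senescence, known barriers to reprogramming, had 5 of 17 members lower in MEFs (29.4%, against 7.97% of all genes). Only 1 was higher (5.88%, against 8.45%), and the median difference was -0.63. Cdkn2a, the locus of p16 and p19Arf, had 6.91 in MEFs, against 8.49 in 2B1 and 8.34 in 5C5, and 4.7 to 5.6 in 2i iPSCs and ESCs. Its neighbour Cdkn2b, which encodes p15, had 10.20 in MEFs, against 8.34 in 2B1 and 7.67 in 5C5. The retinoblastoma gene Rb1 was lower by 1.90 and Bbc3, a cell death gene, by 1.23, and Mdm2 was level (10.78 in MEFs, against 10.90 in 2B1 and 10.40 in 5C5). Against 2B1 alone, 8 of the 17 were lower. Interferon and MHC genes had 5 of 25 lower (20%, against 7.97% of all genes) and 2 higher (8%, against 8.45%). Their median difference was -0.26. The lower ones included Oas1a (6.13 in MEFs, against 9.84 in 2B1 and 8.60 in 5C5), Bst2 (-2.46) and H2-K1 (9.28 in MEFs, against 11.85 in 2B1 and 11.69 in 5C5). H2-K1 was past the rule on 2 of its 4 probe sets, and Bst2 was not past it against all 9 partial iPSC arrays (-0.72). Against 2B1 alone, 8 of these 25 were lower.

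The genes furthest from the clones fell into patterns when the other arrays were read. The secreted proteins C1qtnf3 (10.05 in MEFs, against 2.56 in 2B1 and 2.47 in 5C5), Prg4 (10.52 in MEFs, against 3.63 in 2B1 and 3.28 in 5C5) and Smoc2 (9.65 in MEFs, against 2.97 in 2B1 and 2.89 in 5C5) were low on all 6 other arrays, at most 3.77. Rps4l, a ribosomal protein gene, had 11.31 in MEFs, against 3.85 in 2B1 and 3.84 in 5C5, yet 12.78 and 12.76 on the 2i arrays and 13.30 and 12.99 on the ESC arrays. Fhl1, a LIM protein of muscle, had 11.96 in MEFs, against 3.79 in 2B1 and 4.49 in 5C5, and 8.28 to 10.22 on the 2i and ESC arrays, although its other probe set was at 4.01 in MEFs. On the lower side, Fbxo15, a target of Pou5f1 and Sox2, had 4.37 in MEFs, against 11.79 in 2B1 and 11.88 in 5C5, and 12.11 to 12.43 in 2i iPSCs and ESCs. Several others were high in the partial clones alone: Sptssb, a subunit of serine palmitoyltransferase, had 3.27 in MEFs, against 10.32 in 2B1 and 10.59 in 5C5, and at most 3.75 on the 2i and ESC arrays. Slc38a5, an amino acid transporter, had 4.27 in MEFs, against 12.82 in 2B1 and 14.08 in 5C5, and Hbb-y, an embryonic globin, had 2.80 in MEFs, against 10.08 in 2B1 and 10.39 in 5C5. Other erythroid markers such as Hba-a1 (3.42 in MEFs, against 3.46 in 2B1 and 3.36 in 5C5) and Slc4a1 (4.05 in MEFs, against 4.14 in 2B1 and 3.93 in 5C5) stayed low, and 1 of 8 erythroid markers was past the rule.

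Markers of further cell types that an embryonic culture can hold were counted, and their part in the results above was not tested. Over all genes, 8.45% were higher in MEFs and 7.97% were lower, and in lists this short 1 or 2 members can reach such shares. Of 15 macrophage markers, 2 were higher in MEFs (Lyz2 by 2.92 and C1qa by 1.59) and 2 lower (Laptm5 and Cd68), with mean levels of 5.08 in MEFs, against 5.08 in 2B1 and 4.91 in 5C5, and the pan-leukocyte marker Ptprc was at 3.07 in MEFs, against 3.24 in 2B1 and 2.95 in 5C5. Of 14 endothelial markers, 3 were higher and 1 lower, with mean levels of 5.46 in MEFs, against 5.15 in 2B1 and 5.32 in 5C5. The endothelial sialomucin Emcn was higher in MEFs by 3.17 and the lymphatic receptor Flt4 by 3.89. Another Flt4 probe set differed by 0.51, and Flt1, also higher (1.10), was past the rule on 2 of its 4 probe sets. The junction gene Cdh5 was near the bottom in all 3 (4.25 in MEFs, against 4.49 in 2B1 and 4.32 in 5C5), and Tek was lower in MEFs by 4.45. Of 6 adipocyte markers 4 were higher, Fabp4, Pparg, Cebpa and Lpl, by 1.21 to 1.46, with Adipoq low at 3.30 in MEFs, against 3.11 in 2B1 and 3.33 in 5C5. Taking the median of a gene's probe sets left 2 of the 4. Of 13 neural markers, 3 were higher and 4 lower, and of 11 cartilage markers only Col2a1 was higher (3.99). Among 10 liver and endoderm, 7 keratinocyte and 10 trophoblast markers, at most 1 in each direction was past the rule.

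The sex-linked genes separated the arrays as well. The Y-linked gene Eif2s3y had 9.22 in MEFs, against 2.85 in 2B1 and 2.74 in 5C5, although its second probe set was not past the rule (2.64 in MEFs, against 2.83 in 2B1 and 2.57 in 5C5). The other 2 Y-linked genes were outside the rule on the probe sets used, which differed by 0.77 (Uty) and 0.06 (Kdm5d), but both were higher in MEFs on another. Uty then had 5.94 in MEFs, against 2.70 in 2B1 and 2.74 in 5C5, and Kdm5d 6.10 in MEFs, against 2.78 in 2B1 and 2.82 in 5C5. Xist, the RNA of the inactive X chromosome, had 5.20 in MEFs, against 5.44 in 2B1 and 13.49 in 5C5. On all 3 Xist probe sets MEFs and 2B1 were alike and 5C5 was higher by at least 6.66. The MEF culture is labelled mixed and both clones female.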

How the data were processed

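Total RNA from 14 cell samples was hybridised as biotin-labelled cRNA to Affymetrix arrays of 45101 probe sets, 1 array each. The deposited values are on the log2 scale, made by the authors with RMA and affy, per the submitters' processing notes; the sources used here give no versions. Sorted values of the 7 arrays that hold the MEFs differed by a median range of 0.085, those of the 7 transduced arrays by 0.096 and those of all 14 by 0.318, so the 2 sets were treated as normalized apart.

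Of the probe sets, 64 were controls, 34945 had 1 gene, 932 several and 9160 none; 34741 matched the RefSeq table of GRCm38.p6. Each of 18193 genes was read from the probe set with the highest mean over 14 arrays. No gene was dropped as dim, because a filter over several arrays removes genes that only the single MEF array shows. The lower side lay under its array's 25th percentile for 181 of the higher and 85 of the lower genes, where a difference depends on background. Differences were computed in Python 3.11.15 with pandas 2.3.3 and numpy 2.4.6. The counting code was run on simulated data with changes larger than the threshold, which does not check the calls on these arrays. Arrays give no depth, and their number limits precision.

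Named genes were the 12 highest and 12 lowest, up to 5 members past the rule and 2 nearest to 0 in each of 29 gene lists (548 of 593 symbols measured), the markers, and the genes at the threshold. A few further members, such as Fn1, Col4a1, Col4a2, Nid1, Dlk1, Myod1, Myog, Hoxd9, Hoxc5, Hoxc6 and Hoxa3, were named after their values were seen. Members and lists were chosen with earlier results of these data known. No test, no set test and no correlation was run. Alternatives changed the scaling, the filter on dim genes, the floor, the probe set of a gene, the threshold and the clones used.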

Additional observations from a re-analysis of the deposited data

Results flagged for a closer look

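At 47 genes the MEF array lay at least 1 above one partial clone and at least 1 below the other. The 3 at which the smaller of the 2 differences was largest in size are given here. The difference between the clones was not tested, since each clone has 1 array. Pycard, the adaptor of inflammasomes, had 6.46 in MEFs, against 3.66 in 2B1 and 9.33 in 5C5, so that MEF minus 2B1 was 2.79 and MEF minus 5C5 was -2.87. Slc6a15, a neutral amino acid transporter, had 6.49 in MEFs, against 2.78 in 2B1 and 9.24 in 5C5, with differences of 3.71 from 2B1 and -2.75 from 5C5. Tgm2, a transglutaminase that crosslinks proteins, split the other way, with 8.64 in MEFs, against 11.06 in 2B1 and 6.04 in 5C5, and differences of -2.42 from 2B1 and 2.60 from 5C5.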

How the results depend on the processing

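The counts of 1537 higher and 1450 lower genes stayed within 1.5 times under centring on the median (1544 and 1438), quantile normalization over the 7 arrays (1605 and 1371), both filters on dim genes (1254 and 1437, 1453 and 1429), a floor at the 25th percentile (1504 and 1424), the median of a gene's probe sets (1324 and 1236) and the probe set brightest over MEFs and partial clones (1620 and 1406). They moved further when every probe set had to pass (915 and 804), at a threshold of 2 log2 (595 and 382) and at 1.5-fold (2550 and 2698). Leaving out either clone gave 1965 to 2016 higher and 2067 to 2323 lower genes. Against all 9 partial iPSC arrays, untreated and transduced, after quantile normalization of all 14 arrays, an alternative chosen after seeing the data, 1359 were higher and 933 lower. The share of higher among counted genes was 51.5%, against 60.9% at 2 log2 and 59.3% over all 9 arrays. It was 46.6% with the filter on 2 of 14 arrays and 48.6% at 1.5-fold. Against 5C5 alone it was 46.5%, and against 2B1 alone 48.7%, so which direction held more genes depended on the setting. The 1439 genes that separated the clones numbered 1405 to 1436 under other scalings and the floor. Of 191 named genes, Epcam turned round with the brightest probe set over MEFs and partial clones (0.68) and Klf4 with the median of its probe sets (0.27), and requiring every probe set took 29 out of the rule. Over all 9 partial arrays, 14 named genes were lost, Cdh1 among them (-0.78). Of the counted genes with several probe sets, all of them passed for 258 of 880 higher and 203 of 849 lower genes. Dim probe sets limit the sizes: 84 higher and 26 lower genes were under the table median of 5.42 even on their higher side. No paired analysis was possible because MEFs have 1 array and share no replicate with either clone.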

Other observations

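Genes higher in MEFs were read on the arrays that took no part in the rule. Their median level was 8.97 in MEFs, against 6.64 in 2B1 and 6.52 in 5C5, which the rule fixes, and it was 7.25 and 7.31 in the 2i iPSCs and 6.18 and 6.02 in the ESC lines. Genes lower in MEFs had a median of 6.96 in MEFs, against 9.03 in 2B1 and 9.15 in 5C5, and 8.64 to 8.76 on the 2i and ESC arrays.

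Promoter windows were also read for base composition, without a test. Their median GC content was close, at 61% for genes higher in MEFs, 60% for genes lower in MEFs and 58.7% for all genes. The median ratio of observed to expected CpG in the promoter window was 0.64 for genes higher in MEFs, 0.75 for genes lower in MEFs and 0.66 for all genes, and 0.44 for the 73 genes with a window that were higher by at least 4. Of those 73 genes, 24.7% had TATAAA in a window and 8.22% a CArG box, against 11.5% and 1.58% of all genes. By chromosome, the share of genes higher in MEFs ran from 5.76% on chromosome 17 to 10.9% on the X chromosome, against 8.45% of all genes. Chromosomes 10 (10.8%) and 3 (10.5%) were close to the X chromosome. The share lower ran from 6.12% on chromosome 8 to 10.5% on the X chromosome, against 7.97% of all genes. The Y chromosome, with 9 genes, was left out.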
